A study of Gallus gallus with 2 samples.

Results

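Solute carriers (SLC) are the large group of membrane proteins that move nutrients, ions, metals and metabolites across the cell surface and across the membranes of organelles. The probes described here are those of a chicken Agilent array that are no control spots and whose file name for the gene starts with SLC and a digit, or whose description holds the phrase solute carrier family. This gave 137 of 42034 probes, 94 of them by the gene name and 43 by the description alone. They stand for 119 genes of 37 numbered families, and 17 of these genes had more than 1 probe. Of the 137 probes, 133 were named through the RefSeq gene table of assembly GRCg7b.

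The RNA came from intraepithelial lymphocytes of the intestine, mostly T cells that sit among the epithelial cells, taken from broiler chickens at day 14. The DFM group was fed direct fed microbials, which are live bacteria given in feed, and the control group was not. Each of 2 two-colour arrays took total RNA of the DFM group and of the control group together, with DFM in Cy5 and control in Cy3 on replicate 1, and DFM in Cy3 and control in Cy5 on replicate 2. By the labels, replicate 2 is a biological replicate and also the dye exchange of replicate 1, and the number of birds is not given in them. The p-values below thus cover no more than how far these 2 arrays differ, which may be technical, and having only 2 arrays limits how precise any value is.

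In the small intestine, enterocytes take up sugars through the sodium-driven SLC5 and the facilitative SLC2 families, and small peptides through SLC15A1. Amino acids, phosphate, metals and vitamins enter through many further families, several of which are driven by the sodium gradient that the sodium pump maintains. Lymphocytes also depend on amino acid, glucose and nucleoside carriers when they grow, and in every nucleated cell the SLC25 family exchanges metabolites across the inner mitochondrial membrane while SLC35 members supply nucleotide sugars to the Golgi apparatus.

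A signal was taken as detected where the scanner software marked it as well above its local background. Of the 137 SLC probes, 79 (57.7%) were detected in both channels of both arrays and 41 (29.9%) in no channel. Over all 42034 probes these shares were 37.6% and 47.2%, and over the 10348 probes named through RefSeq they were 59.9% and 26.6%, so the SLC probes stood close to other named genes in this respect. In the DFM channels 91 SLC probes were detected on replicate 1 and 82 on replicate 2, against 82 and 89 in the control channels. The higher number was in the Cy5 channel on each array. With the software's less strict flag for a positive and significant signal, 105 of the 137 probes were above background on both arrays in at least 1 group, against 83 with the flag used here.

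Detection differed between transport classes, which were formed by family number. All 5 probes for fatty acid and acetyl-CoA carriers (families 27 and 33) were detected in all channels. So were 12 of 15 probes for family 25 and 10 of 13 for the nucleotide sugar carriers of family 35. Bile acid carriers of family 10 were placed in the first of these classes but had no probe under the rule. Among 23 probes for amino acid and peptide carriers, 9 were detected in no channel, and of 12 probes for carriers of monocarboxylates, dicarboxylates and sulfate, 5. Several genes best known from the nervous system, named here after their values were seen, had no detected channel. Among them were the GABA transporter gene SLC6A11, the noradrenaline transporter gene SLC6A2 and the glial glutamate transporter gene SLC1A3. The vesicular transporter genes SLC17A6 and SLC18A2 were others. The glycine transporter gene SLC6A9, of the same family as SLC6A11 and SLC6A2, was detected in all channels. No channel was above background either for SLC7A7, a light subunit for cationic amino acid exchange, or for SLC40A1, the iron exporter ferroportin. SLC7A5, a large neutral amino acid transporter that lymphocytes use on activation, was detected in 1 channel, and SLC16A1, a lactate and butyrate transporter, in 2.

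**Figure D1:**
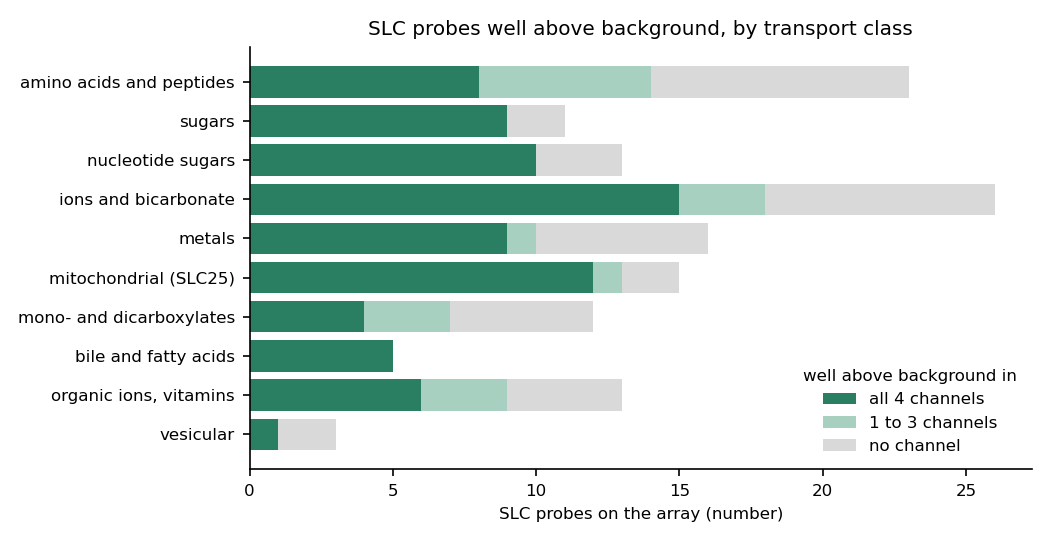
Number of SLC probes (horizontal axis) in each transport class, divided by whether the probe was well above background in all 4 channels, in 1 to 3 or in none. All 5 probes of the bile and fatty acid class were detected throughout, though none was for a bile acid carrier. Of 23 probes for amino acid and peptide carriers, 9 were detected in no channel.

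The comparison asks whether feeding DFM went with another level of these transporters. A probe was tested where it was detected on both arrays in at least 1 group, which left 83 SLC probes for 79 genes of 30 families. The other 54 SLC probes were not tested. Each tested probe's log2 ratio of DFM over control was set against 0 in 1 limma fit over all 18242 tested probes, and a probe is called higher or lower here where the Benjamini-Hochberg adjusted p was under 0.05.

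With DFM, 8 SLC probes were higher, 8 were lower and 67 were not called. The called share was 19.3%, against 22.6% of all tested probes (12.1% higher and 10.5% lower) and 22.3% of the 6783 tested probes named through RefSeq. The SLC probes were therefore called no more often than probes in general. Their median log2 ratio was -0.07, the same as over the probes named through RefSeq (-0.07), while the median over all tested probes was 0.00. On the single arrays the SLC median was -0.06 on replicate 1 and -0.09 on replicate 2. In all, 51 of the 83 mean ratios were below 0 and 32 above. At an unadjusted p under 0.05 there were 39 SLC probes (47%), against 37% of all tested probes.

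Large changes were few in the main setting. Only 2 SLC probes (2.41%), SLC2A12 and SLC25A15, differed there by 2-fold or more in the same direction on each array. Both were higher with DFM, and the share of all tested probes was 2.42%. This count holds for the main background correction only, since the size of some ratios depended on it. With a normexp offset of 0, mean log2 ratios passed 2-fold for further probes, such as SLC5A11 (-1.13) and TC226517 (1.32). The scanner software's ratio gave means of -1.34 and 1.45 for them. Other means moved little, such as that of SLC15A1 (-0.88 and -0.90). The ratio had the same sign on both arrays for 62 of the 83 probes (74.7%), against 76.0% of all tested probes. Pearson's r between the ratios of replicate 1 and replicate 2 was 0.74 over the 83 probes, which share the arrays and are no replicates of each other, and 0.82 over all tested probes. All 16 called SLC probes were detected in all 4 channels. They belonged to 15 families, and family 25 alone held calls in both directions.

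**Figure D2:**
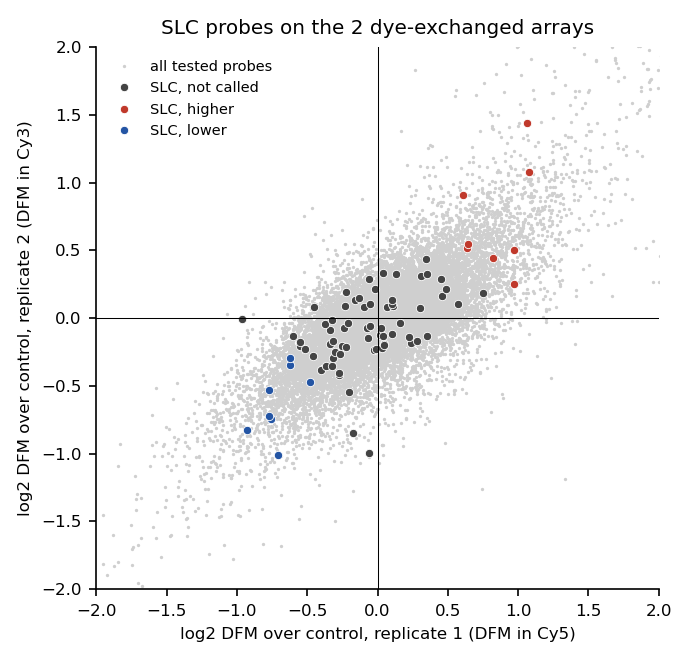
Log2 ratio of DFM over control of each tested probe on replicate 1 (horizontal axis, DFM in Cy5) and on replicate 2 (vertical axis, DFM in Cy3). Grey dots are all tested probes within the axis limits and larger dots are the 83 SLC probes, of which 8 were called higher and 8 lower; SLC2A12 and SLC25A15 lie above 1 on both axes.

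Each direction above is set by the average probe, which loess normalization puts at 0 on each array. When the ratios were set to the 10 spike-in RNAs instead, the median over all tested probes stood at 2.12 and that of the SLC probes at 2.05, and all 83 SLC probes came out higher. This scaling adds the same shift to every probe. The SLC median thus lay 0.07 below that of all tested probes, as it had to. The calls also rest on loess: with each array centred on its median, no SLC probe and 0.641% of all tested probes were called by limma, and 1 SLC probe was under 0.05 before adjustment. The ratios themselves moved little, with means of 1.21 for SLC2A12, 1.09 for SLC25A15 and -0.80 for SLC15A1, against 1.25, 1.08 and -0.88 with loess.

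Among peptide and amino acid carriers, 10 of 23 probes were tested, of which 1 was higher and 3 were lower with DFM (40% called, against 22.6% of all tested probes), and the median log2 ratio was -0.31. SLC15A1, the proton-coupled carrier for small peptides of the enterocyte brush border, had normalized log2 signals of 13.94 and 13.51 in the DFM channels of replicates 1 and 2, against 14.87 and 14.34 in the control channels. Both DFM signals lay below both control signals. It was 1.84-fold lower (log2 ratios -0.93 and -0.82, mean -0.88, SE 0.13, n = 2 arrays, limma adjusted p = 0.00223). Its probe lies at chr1:137478897-137478956 on the plus strand of galGal2, the build of all positions in the scanner files. In RNA of a whole cell preparation, fewer cells of a type and less RNA per cell cannot be told apart, which holds for every difference given here.

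SLC43A2 and SLC38A4 were lower too. SLC43A2, an L-type carrier of neutral amino acids (chr19:4998281-4998339, minus strand), had signals of 7.79 and 7.82 with DFM, against 8.42 and 8.17 in control, and was 1.40-fold lower (SE 0.13 on the log2 scale, adjusted p = 0.033). The DFM signals were alike on the arrays, and the gap to control was wider on replicate 1. SLC38A4, a sodium-coupled carrier of small neutral amino acids (chr1:28019534-28019593, minus strand), had signals of 6.41 and 6.48 with DFM, against 6.89 and 6.95 in control, a 1.39-fold lower level (SE 0.12, adjusted p = 0.0269). The gap was nearly the same on both arrays, at -0.48 and -0.47. Its mean ratio depended on the background correction, at -0.996 with a normexp offset of 0 and -1.45 from the scanner software's ratio, with the call kept under both. A second SLC38A4 probe was detected in no channel.

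SLC6A9, a glycine transporter gene (chr8:20677905-20677964, minus strand), was the one amino acid carrier that was higher with DFM, 1.53-fold (SE 0.18, adjusted p = 0.0384). Its signals were 8.44 and 8.28 in the DFM channels, against 7.47 and 8.03 in the control channels. The ratio was uneven between the arrays, at 0.97 and 0.25, and without the filter on dim probes the adjusted p was 0.0701.

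The remaining tested members of this class were not called. For SLC7A2, a cationic amino acid transporter, signals were 6.07 and 6.13 with DFM, the second not well above background, against 6.47 and 6.52 in control (mean ratio -0.39, adjusted p = 0.0528). This was the lowest adjusted p among the uncalled SLC probes, and the gene was picked out after its values were seen. SLC7A6, an exchanger for cationic and neutral amino acids that lymphocytes express, had a mean ratio of -0.38 (adjusted p = 0.0816), with -0.55 on replicate 1 and -0.20 on replicate 2. SLC38A2, a widely expressed sodium-coupled amino acid carrier, had a mean ratio of -0.24 (adjusted p = 0.199) with the DFM signal not well above background on replicate 2. Its value depended on how the background was removed: the mean ratio was -0.72 with a normexp offset of 0 (adjusted p = 0.0347) and -1.64 from the scanner software's ratio (adjusted p = 0.0188).

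Among sugar and sugar phosphate carriers, 9 of 11 probes were tested, and 2 were higher and 1 lower with DFM (33.3% called, against 22.6% of all tested probes), with a median log2 ratio of -0.35. SLC2A12, a facilitative glucose transporter gene (chr3:55139540-55139599, plus strand), was the most raised SLC probe. Its signals were 7.99 and 8.28 with DFM, against 6.93 and 6.85 in control, and it was 2.38-fold higher (log2 ratios 1.06 and 1.44, SE 0.14, n = 2 arrays, adjusted p = 0.00064). Both DFM signals stood more than 1 log2 unit above both control signals. With the scanner software's ratio its mean was 1.91. A second SLC2A12 probe was detected in no channel. SLC37A2, an exchanger of sugar phosphate for phosphate in the endoplasmic reticulum (chr24:200024-200060, minus strand), had signals of 9.51 and 9.46 with DFM, against 8.87 and 8.91 in control, and was 1.51-fold higher (SE 0.13, adjusted p = 0.0117). Its replicates lay close together in both groups.

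SLC5A11, a sodium-dependent inositol transporter gene (chr14:8592608-8593201, plus strand), was lower with DFM. Its signals were 7.01 and 6.96 in the DFM channels, against 7.77 and 7.70 in the control channels, a 1.68-fold lower level with log2 ratios of -0.76 and -0.75 (SE 0.12, adjusted p = 0.00433). The arrays differed by no more than 0.01 in this ratio, and the scanner software's ratio gave a mean of -1.34.

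The main glucose carriers of enterocytes were not called. For SLC5A1, the sodium-driven glucose carrier of the brush border, the log2 ratio was -0.97 on replicate 1 and -0.01 on replicate 2 (adjusted p = 0.125). Its signals were 10.06 and 10.74 with DFM, against 11.03 and 10.74 in control, so that 1 array carried the whole difference. SLC2A2, the glucose exit route on the basal side, had ratios of -0.60 and -0.13 (mean -0.37, adjusted p = 0.11). SLC2A1, the glucose carrier of red cells and dividing cells, had ratios of -0.20 and -0.55 (mean -0.37, adjusted p = 0.0837). Each of these means was negative, but none passed the test.

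Among ion and bicarbonate carriers, 16 of 26 probes were tested, and 2 were higher and 1 lower (18.8% called, against 22.6% of all tested probes). The median log2 ratio was -0.06. SLC24A2, a potassium-dependent sodium and calcium exchanger (chrZ:13489797-13489856, plus strand), had signals of 8.42 and 8.37 with DFM, against 7.60 and 7.92 in control. It was 1.55-fold higher (SE 0.14, adjusted p = 0.0147), with the wider gap on replicate 1. SLC20A2, a sodium-phosphate carrier found in most tissues (chr4:34698041-34698100, plus strand), had signals of 8.85 and 8.72 with DFM, against 8.22 and 8.21 in control, and was 1.49-fold higher (SE 0.13, adjusted p = 0.014). SLC41A3, of the magnesium transporter family 41 (chr12:10529615-10529674, minus strand), had signals of 7.85 and 7.94 with DFM, against 8.62 and 8.47 in control. It was 1.57-fold lower (SE 0.13, adjusted p = 0.00974).

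The phosphate carrier of the enterocyte brush border, SLC34A2, was not called, with ratios of -0.27 and -0.41 (adjusted p = 0.0863). Of 7 member probes whose genes encode no transporter (SLC4A1AP, SLC7A6OS, SLC9A3R1 and SLC9A3R2, named after a carrier they bind or neighbour), 4 were tested and none was called. These probes are included in the class counts by family number, SLC7A6OS with the amino acid carriers and the others with the ion carriers.

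Among metal carriers, 9 of 16 probes were tested, and 2 were higher and none lower (22.2% called, against 22.6% of all tested probes). The median log2 ratio was -0.02. SLC39A9, a zinc transporter of the ZIP family (chr5:24912972-24913031, minus strand), had bright signals of 12.50 and 12.85 with DFM, against 11.89 and 11.94 in control, and was 1.69-fold higher (log2 ratios 0.61 and 0.91, SE 0.13, adjusted p = 0.00584). Its control signals nearly coincided. The probe TC226517, which has no gene name and no position in the files, is described there as resembling member 2 of family 11 of the mouse, which carries iron and other divalent metals in that species. Its signals were 7.47 and 7.20 with DFM, against 6.50 and 6.70 in control, and it was 1.67-fold higher (SE 0.15, adjusted p = 0.0098). The gap was wider on replicate 1, at 0.97 against 0.50 on replicate 2. The mean log2 ratio of 0.74 was 1.32 with a normexp offset of 0 and 1.45 from the scanner software's ratio, and the call was kept under both.

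Further zinc carriers, with ratios of either sign, are named here after their values were seen. SLC39A6, a further ZIP importer, had ratios of 0.75 and 0.19 (adjusted p = 0.0643), and SLC30A5, an exporter of the ZnT family into the secretory pathway, had -0.17 and -0.85 (adjusted p = 0.0615). The probes of the ZnT-family gene SLC30A9 had means of -0.17 and 0.19. None of these was called, and in each of the first pair 1 array held most of the difference.

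Of the mitochondrial carrier family SLC25, 12 of 15 probes were tested, and 1 was higher and 1 lower. That is 16.7% called, against 22.6% of all tested probes, and the median log2 ratio was -0.09. SLC25A15, the carrier that exchanges ornithine and citrulline for the urea cycle in mammals (chr1:162613802-162613861, minus strand), had signals of 7.85 and 7.59 with DFM, against 6.77 and 6.52 in control. It was 2.11-fold higher, with ratios of 1.07 and 1.08 (SE 0.12, n = 2 arrays, adjusted p = 0.000756). The arrays agreed in this ratio, although both groups were dimmer on replicate 2, and the scanner software's ratio gave a mean of 1.85. SLC25A17, which despite its family carries cofactors across the peroxisomal membrane (chr1:46660922-46660981, plus strand), had signals of 9.81 and 10.10 with DFM, against 10.43 and 10.40 in control. It was 1.37-fold lower (SE 0.14, adjusted p = 0.0433), the highest adjusted p among the called probes.

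The abundant carriers of oxidative phosphorylation were not called. The phosphate carrier gene SLC25A3 had ratios of -0.46 and -0.28 (adjusted p = 0.0703). The ADP/ATP carrier genes SLC25A4 and SLC25A6 had means of -0.37 (adjusted p = 0.0774) and 0.10 (adjusted p = 0.602). With a normexp offset of 0, SLC25A4 was called lower at -0.66 (adjusted p = 0.0498). SLC25A20, the carnitine carrier for fatty acid oxidation, had a mean of -0.16 (adjusted p = 0.4). Both probes of SLC25A37, an iron importer of red cell precursors, were left untested, 1 of them with no detected channel.

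Among the 10 tested nucleotide sugar carriers of 13, only SLC35A3 was called (10%, against 22.6% of all tested probes). SLC35A3, which brings UDP-N-acetylglucosamine into the Golgi apparatus (chr8:12322266-12322325, minus strand), had signals of 10.22 and 9.83 with DFM, against 10.93 and 10.83 in control. Both DFM signals lay below both control signals, and the gene was 1.81-fold lower (log2 ratios -0.70 and -1.01, SE 0.13, adjusted p = 0.00348). The median of the class was -0.02.

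Of 13 probes for carriers of organic ions, vitamins, choline and nucleosides, 7 were tested and only SLC22A18 was called. This is 14.3%, against 22.6% of all tested probes. SLC22A18, an organic cation transporter-like gene that is imprinted in mammals (chr5:10753798-10755094, minus strand), had signals of 8.58 and 8.43 with DFM, against 9.35 and 9.15 in control. It was 1.68-fold lower, with ratios of -0.77 and -0.72 (SE 0.12, adjusted p = 0.00457). A second SLC22A18 probe was detected in 1 channel and was not tested. The folate carrier gene SLC19A1 had ratios of -0.06 on both arrays (adjusted p = 0.764), and the nucleoside transporter gene SLC29A1 a mean of 0.12 (adjusted p = 0.529).

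The 4 tested probes for carriers of monocarboxylates, the 5 for fatty acids and acetyl-CoA and the 1 vesicular probe were not called. Among all tested probes 22.6% were called. SLC16A3, the lactate exporter of glycolytic cells, had ratios of 0.05 and -0.19 (adjusted p = 0.712). SLC16A10, an aromatic amino acid carrier of the monocarboxylate family named here after its values were seen, had ratios of -0.06 and -0.997 (adjusted p = 0.094). The probes of SLC27A4, a fatty acid transport protein of enterocytes, differed in sign: the means were 0.39 (adjusted p = 0.0539) and -0.34 (adjusted p = 0.0827). Without the filter on dim probes the first of these was called higher (adjusted p = 0.0373). No gene had probes called in opposite directions, but for 3 of the 4 genes with more than 1 tested probe (SLC27A4, SLC30A9 and SLC33A1) the means had opposite signs.

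**Figure D3:**
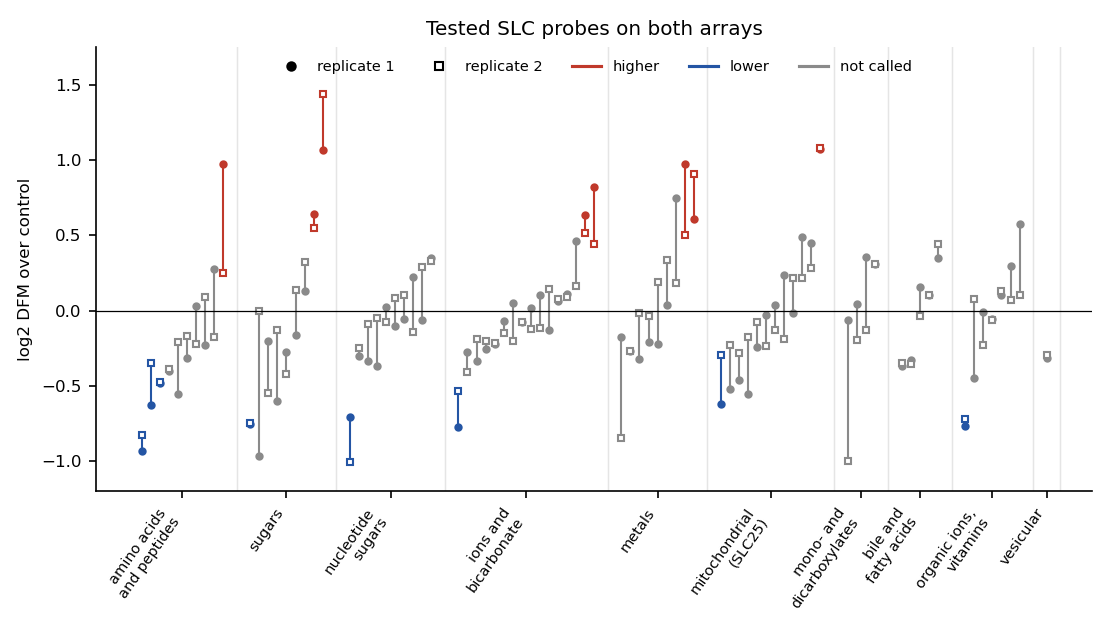
Log2 ratio of DFM over control of each of the 83 tested SLC probes on replicate 1 (filled circle) and replicate 2 (open square), joined by a line and ordered by mean within each transport class. Red marks the 8 probes called higher, blue the 8 called lower and grey those not called; SLC2A12 in the sugar class and SLC25A15 in the mitochondrial class are the highest.

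**Figure D4:**
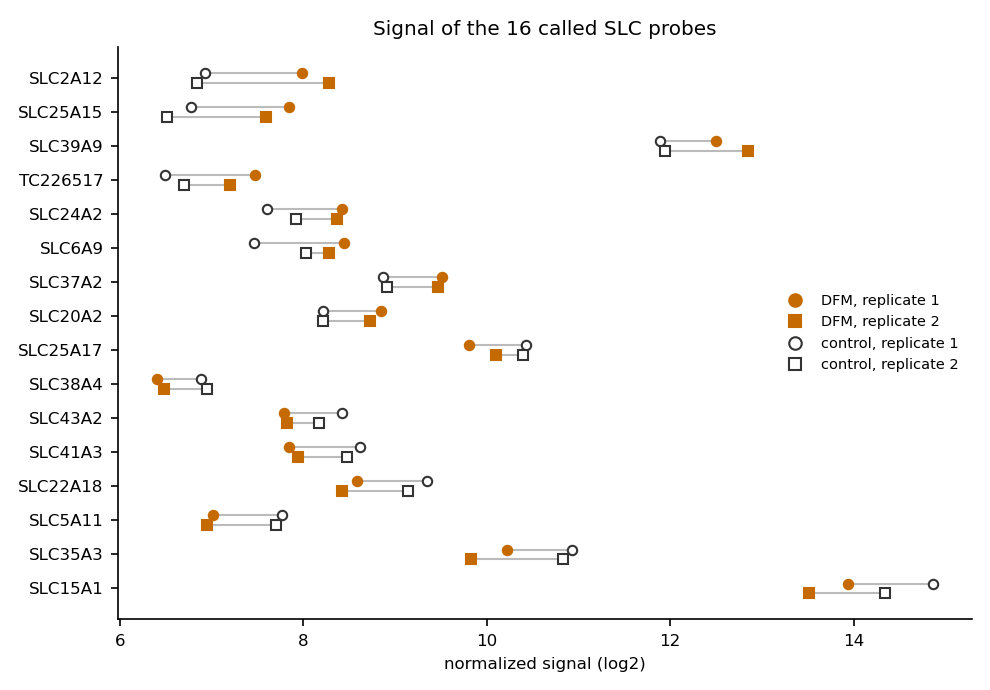
Normalized log2 signal (horizontal axis) of the 16 called SLC probes in the DFM channels (filled) and the control channels (open), circles for replicate 1 and squares for replicate 2, with a line joining the channels of 1 array. The 8 upper probes were called higher with DFM and the 8 lower probes were called lower. They were picked by calls on these same ratios, so a gap between the groups here is no further evidence. Signals of different probes are not comparable with each other.

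A list of 42 transporters of gut epithelium, lymphocytes, macrophages, red cells and mitochondria was also followed whatever the values. Of these, 20 had an SLC probe by the rule above and 15 had a tested one. Of these 15, none was higher, SLC15A1 was lower and 14 were not called. RefSeq names gave tested probes to a further 3 genes of the list that the rule does not reach. This makes 18 tested genes, 3 of them lower, where 10.5% of all tested probes were lower. The added lower genes were the brush border amino acid carriers SLC7A9 (mean log2 ratio -1.02, adjusted p = 0.00119) and SLC6A19 (-0.65, adjusted p = 0.00838). The glutamate carrier gene SLC1A1 was not called (0.14, adjusted p = 0.477).

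Genes that work with these carriers, and the SLCO genes for organic anion carriers, were described in the same fit. Of these 23 listed genes, 11 were tested, and 1 was higher and 2 were lower. Among all tested probes these shares were 12.1% higher and 10.5% lower. The SLCO genes are carriers themselves, and SLCO5A1 also had a probe under the rule above. Those tested, SLCO2A1, SLCO2B1 and SLCO4A1, were not called. ATP1B1, the beta subunit of the sodium pump, had signals of 15.58 and 15.56 with DFM, against 14.77 and 14.98 in control, and was 1.62-fold higher (SE 0.13, adjusted p = 0.00749). OXSR1, a kinase that regulates cation-chloride carriers, was 1.35-fold lower (adjusted p = 0.039). VDAC1, the main pore of the outer mitochondrial membrane, was 1.37-fold lower (adjusted p = 0.0496), with ratios of -0.64 and -0.26.

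Marker genes of the cell types the preparation could hold were set beside these values. Of 24 enterocyte markers that are no solute carriers, 18 were tested, and 9 were lower, 1 was higher and 8 were not called, with a median log2 ratio of -0.38, where 10.5% of all tested probes were lower and 12.1% higher. The lower ones included CDHR2 at -1.72, CALB1 at -1.39 and HNF4A at -1.12, while FABP6 was higher at 0.60. The summed enterocyte signal on the linear scale was 794877 and 674338 in the DFM channels, against 750668 and 882021 in the control channels, so the groups overlapped. The brightest probes weigh most in this sum, among them ANPEP, with log2 ratios of 0.96 on replicate 1 and -0.22 on replicate 2. The sum thus says little about the dimmer enterocyte markers. The enterocyte markers FABP2 and SI were detected in no channel. The tested ones ranged from dim to bright. MTTP had log2 signals of 6.78 and 7.05 with DFM, against 7.43 and 7.58 in control. VIL1 had 16.06 and 16.10 against 16.40 and 16.25, and ANPEP 17.51 and 17.09 against 16.55 and 17.31. The lower level of SLC15A1 stood beside these lower enterocyte markers, and their part in it was not tested.

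Of 10 markers of T cells, which most intraepithelial lymphocytes are, 9 were tested with a median of -0.12, 1 higher and 1 lower. PTPRC was detected in no channel. Their summed signal was 37709 and 32199 with DFM, against 50492 and 49314 in control. Most of this sum came from CD3D, with log2 signals of 15.05 and 14.81 with DFM, against 15.49 and 15.47 in control. The sum thus says little about the other T cell markers, of which CD5 was higher. CD4, CD8A, CD28, LCK and ZAP70 were dim, while CD3E, CD247 and CD5 were brighter. CD8A, whose mean ratio was the median of -0.12, had log2 signals of 6.30 and 6.35 with DFM, against 6.46 and 6.44 in control. LCK had 6.48 and 6.58 with DFM, against 6.44 and 6.50 in control. The 10 tested markers of the exocrine pancreas were all higher with DFM, with a median of 2.23 and summed signals of 20211 and 19932, against 1222 and 1177 in control; PRSS2 and PRSS3 were detected in no channel. Of 4 tested B cell markers, 1 was higher and 1 lower, with a median of -0.16. Of 5 macrophage markers, 1 was higher and none lower, with a median of 0.01. Of 4 red cell markers, 1 was higher and 2 were lower, with a median of -0.31. The red cell marker HBE1 had a mean log2 ratio of 1.89, against -0.77 for HBBA and -1.13 for CA2. Among all tested probes, 12.1% were higher and 10.5% lower. The part of any of these cell types in the SLC values was not tested.

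The share of called SLC probes followed that of all tested probes from one way of processing to the next. It was 22.9%, against 22.6% of all tested probes, with a normexp offset of 0. With the scanner software's ratio the shares were 9.64% and 11.7%, and 5 of the 16 called probes were still called. SLC25A15, SLC2A12, SLC38A4, SLC5A11 and TC226517 kept their call under 4 of 5 such alternatives, all but median centring, and SLC25A17, SLC43A2 and SLC6A9 under 2. The alternatives that only change the filter on dim probes use the same ratios, so a call kept there is a weaker check.

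**Figure D5:**
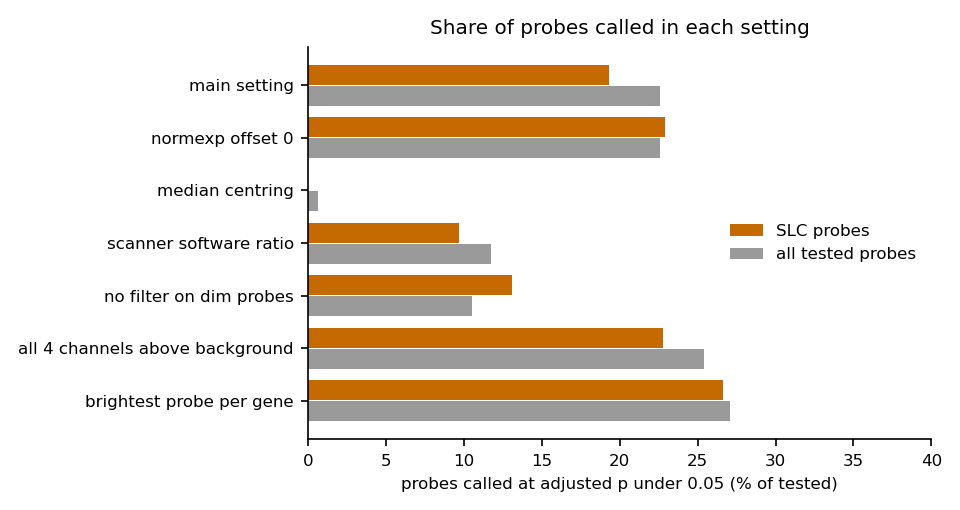
Percent of tested probes called at an adjusted p under 0.05 (horizontal axis) among SLC probes (orange) and among all tested probes (grey), for each way of processing. The shares were 19.3% and 22.6% in the main setting, and no SLC probe was called with median centring, where 0.641% of all tested probes were.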

How the data were processed

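Two-colour Agilent arrays of 2 replicates were analysed. The deposited scanner files hold, per the file headers, intensity values: each spot's mean signal and median local background in both dyes, besides processed signals. The deposited files also hold a log10 ratio of Cy5 over Cy3 with its p-value from an error model within 1 array, per the file headers. The authors' deposited series table is on a log2 scale. Its columns correlated with the log2 Cy5 over Cy3 ratio of the processed signals at r = 1 (replicate 1) and -1 (replicate 2) over 42034 probes, so both are DFM over control with no further centring (medians -0.274 and 0.204). Agilent Feature Extraction 10.7.3.1 is given in the submitters' processing notes.

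Of 43451 spots, 1417 were controls. Signals were corrected by normexp (offset 50) and normalized by loess within arrays, control spots at weight 0, in limma 3.58.1 (R 4.3.3). Levels by channel were taken after loess and Aquantile. The test left out control spots and 5 outlier-flagged probes (replicate 2), and none was saturated. Ratios were turned to log2 DFM over control and tested against 0 with lmFit and eBayes, two-sided, with 1 residual degree of freedom and 7.52 prior degrees of freedom; a dye term would have left none. SE is limma's moderated standard error. The test was checked on simulated data. Both arrays are named by dye in the labels; the scanner ratios of the arrays correlated at r = -0.79 over tested probes, the sign that the dye exchange gives.

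Gene names came through accession (69 SLC probes), gene identifier (41) or symbol (23). A further 25 probes hold the phrase only with a capital letter and were left out by the rule. Named in the text are up to 15 highest and 15 lowest called SLC probes (8 and 8 here), 42 chosen transporters, genes with opposite calls, probes bright in 1 group only, and the partner genes; others are marked as chosen after seeing values. A few genes that this rule names are not reported here. Members, lists and alternatives were chosen with earlier results of these data known. Alternatives were a normexp offset of 0, median centring, the scanner ratio, other filters, spike-in scaling, 1 probe per gene and the series table.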

Additional observations from a re-analysis of the deposited data

How the results depend on the processing

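The SLC probes split into 8 higher and 8 lower in the main setting. No named probe changed sign under a normexp offset of 0, median centring or the scanner software's ratio. Other filters on dim probes leave the ratios as they are, so no sign could change there. With median centring 0 were higher and 0 lower, so 0 were called among amino acid, sugar, nucleotide sugar, ion, metal, mitochondrial and organic ion carriers; over all probes the share of calls that were higher was 93.2%, against 53.4% with loess. With the scanner software's ratio, and likewise with the series table, 3 were higher and 5 lower (ion, metal and mitochondrial carriers 1 call each, nucleotide sugar and organic ion carriers 0). Scaled to the spike-in RNAs, 83 were higher and 0 lower. The cause of these changes was not tested, apart from the scaling, which adds 1 shift to every probe. Without a filter the fatty acid and acetyl-CoA class had 2 calls, and with detection required in all channels the metal class had 4. The SLC median of -0.07 was -0.13 with a normexp offset of 0, -0.20 with the scanner ratio, -0.012 without a filter and 2.05 against the spike-ins, and -0.09 to -0.06 with 1 array left out. With 1 array left there is no test. A wider set that added capitalised descriptions and RefSeq symbols, chosen after seeing the data, had 12 higher and 15 lower of 116 tested. That is 23.3% called, against 22.6% of all tested probes. Without the genes that are no transporters, also chosen afterwards, 8 of 79 were higher and 8 lower (20.3% called). No separate paired analysis was run because each array holds both groups, and the ratio that was tested is already the pair within it. Probes near background (4 of the 83 tested lacked detection in a channel) had the least certain ratios.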

Other observations

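SLC genes that the rule did not reach, because the files give them neither an SLC name nor the phrase in lower case, were named through RefSeq. Apart from SLC7A9, SLC6A19 and SLC1A1, which stood in the list of 42 transporters, they were picked up after the values above were known. Each gene was counted by its brightest tested probe. Of 44 such genes, 22 were tested, and 2 were higher with DFM, 5 were lower and 15 were not called. Their median log2 ratio was -0.29. Among all tested probes, 12.1% were higher and 10.5% lower. SLC7A9, the light subunit of the cystine and cationic amino acid exchanger, had normalized log2 signals of 9.79 and 9.87 with DFM, against 10.90 and 10.80 in control, and was 2.03-fold lower (limma adjusted p = 0.00119). SLC6A19, the neutral amino acid carrier of the brush border, had signals of 12.61 and 12.66 with DFM, against 13.30 and 13.27 in control, and was 1.57-fold lower (adjusted p = 0.00838). SLC46A1, the proton-coupled folate carrier, was 1.66-fold lower (adjusted p = 0.00489), and SLC47A1, an organic cation extruder, 1.85-fold lower (adjusted p = 0.00224). The mitochondrial outer membrane gene SLC25A46 was 1.32-fold lower (adjusted p = 0.0499). SLC1A1, a further carrier of the apical membrane, for glutamate, was not called (mean 0.14, adjusted p = 0.477). For the sugar carrier gene SLC5A9 the brighter of 2 tested probes was not called (0.03, adjusted p = 0.887). The other SLC5A9 probe is not reported here, so the gene as a whole is not judged.

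The higher genes were SLC4A3, an anion exchanger, at 1.41-fold (adjusted p = 0.0257), and SLC38A10, an amino acid carrier-like gene, at 1.34-fold (adjusted p = 0.0402). Of 25 probes whose descriptions hold the phrase with a capital letter, most were not tested. Of the tested ones only SLC31A1, SLC22A13 and TC202263 were called. That share was higher than the 22.6% of all tested probes, but it rests on few probes. The copper importer gene SLC31A1 was lower (mean log2 ratio -0.50, adjusted p = 0.0245). SLC22A13 (0.50, adjusted p = 0.0231) and an unnamed family 30 probe, TC202263 (0.69, adjusted p = 0.0104), were higher.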
